A study of Mus musculus with 21 samples.

Results

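RAW264.7 cells without vimentin (Vim-KO) were compared with wild type (WT) cells of that line, both kept for 12 h with 1 µg/mL lipopolysaccharide (LPS), a glycolipid of the outer wall of Gram-negative bacteria. RAW264.7 is a mouse macrophage-like line that came from a tumour induced by Abelson leukaemia virus. By the genotype, treatment and time in the labels, the comparison takes 2 Vim-KO and 2 WT libraries, which are 4 of the 21 RNA sequencing libraries of a study on transglutaminase 2, vimentin and proteostasis in activated macrophages. The same 12 h experiment holds 2 Vim-KO and 2 WT libraries of cells given phosphate-buffered saline (PBS) in place of LPS, and all 8 share 1 estimate of the spread. The labels give neither the way in which the Vim-KO line was made nor whether it is 1 clone, so each difference is one between these lines. Whether both libraries of a group had a culture of their own is not stated either, and a p-value here weighs a difference against library spread that may be purely technical.

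Vimentin is a cytoplasmic intermediate filament protein that is abundant in macrophages and other cells of mesenchymal origin, where it shapes the cell, holds organelles in place and surrounds deposits of misfolded protein. Macrophages sense LPS through Toll-like receptor 4 with its partners MD-2 and CD14. An early branch through the adaptor MyD88 and the transcription factor NF-kB drives cytokine genes, and a branch through the adaptor TRIF induces interferon beta, which acts back on the cell and switches on antiviral genes.

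The values are TPM, relative transcript abundances corrected for transcript length, from which sequencing depth cannot be read, and depth is therefore unknown. Of 35550 genes listed, 17521 were at 0 in all 8 libraries, and the 11115 genes that averaged 1 TPM or more across the 8 libraries were tested. The test was limma on log2(TPM + 1), with Benjamini-Hochberg adjustment over all genes tested, and a gene is called where its adjusted p is under 0.05. Fold changes are Vim-KO minus WT on that log2 scale, ± SE, which understates the change of low genes, and levels are TPM of single libraries.

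Vim, on chromosome 2 (chr2:13573927-13582826, GRCm38, plus strand), had 30.8 and 32.95 TPM in the Vim-KO libraries under LPS, against 1375 and 1461 TPM in the WT libraries (log2 fold change -5.43 ± 0.07, adjusted p = 4.97e-09), which is 2.25% of the WT level. Tgm2, which encodes transglutaminase 2, was low in both, with 0.5503 and 0.409 TPM in Vim-KO and 3.11 and 3.39 TPM in WT libraries (log2 fold change -1.52, adjusted p = 1.41e-04). Of 15 macrophage markers, 14 were at 1 TPM or more in both libraries of both genotypes and the efferocytosis receptor Mertk was at 0; their summed level was 14640 to 15849 TPM in Vim-KO and 17489 to 18732 TPM in WT libraries. Summed markers of T and B cells, dendritic cells, fibroblasts, and epithelium and endothelium were between 0.135 and 2.59 TPM in Vim-KO and between 0.0251 and 8.12 TPM in WT libraries. A second list of 10 dendritic cell markers summed to 610 and 649 TPM in Vim-KO and 500.3 and 500.1 TPM in WT libraries. Its only tested member, Bst2, was called higher (0.33) and is also an interferon-stimulated gene. The 10 neutrophil and mast cell markers summed to 13.8 and 14.7 TPM in Vim-KO and 896 and 912 TPM in WT libraries, nearly all of it S100a8, with Ly6g, Elane, Cpa3, Mcpt8 and Fcer1a at 0 in both genotypes. Libraries of a group correlated at 0.988 to 0.990 on the log2 scale. Mitochondrial transcripts took 2.53% and 4.602% of TPM in the Vim-KO and 4.83% and 2.45% in the WT libraries under LPS. This spread within each genotype leaves a difference between them not detectable.

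The genotypes differed in a large part of the transcriptome under LPS. Of the 11115 genes tested, 4966 were called (44.7%), 2681 higher (24.1%) and 2285 lower (20.6%) in Vim-KO cells. Large differences lay more often on the lower side: with a change of at least 1 on the log2 scale, 346 genes (3.11%) were higher and 570 (5.13%) lower. The median over all genes tested was 0.04; median-of-ratios scaling between libraries moved it by -0.07, and the share of calls that were higher was then 44.4%, against 54.0% without scaling. With so many calls, a count of list members is read below against these shares. In bulk RNA, fewer cells with a transcript and less of it per cell cannot be told apart.

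The largest differences were in transcripts that were abundant in WT cells and near absent or low in Vim-KO cells. Cd36, a scavenger receptor for oxidized lipoproteins and fatty acids, had 0.036 and 0 TPM in Vim-KO and 641 and 698 TPM in WT libraries (log2 fold change -9.36 ± 0.08, adjusted p = 5.56e-10). Il1rn, the antagonist of the interleukin-1 receptor, had 18.1 and 18.2 TPM in Vim-KO against 2461 and 2776 TPM in WT libraries (log2 fold change -7.09 ± 0.10, adjusted p = 6.69e-09). Serpinb2, an inhibitor of plasminogen activators, had 0.095 and 0.186 TPM in Vim-KO and 206 and 217 TPM in WT libraries (log2 fold change -7.54 ± 0.12, adjusted p = 1.45e-08). In each of these genes both Vim-KO libraries lay far below both WT libraries, and the rule for naming them required no overlap. Lyz1, a lysozyme gene, had 12.2 and 12.2 TPM in Vim-KO and 1496 and 1505 TPM in WT libraries (log2 fold change -6.83), while its close paralog Lyz2 had 6842 and 6855 TPM in Vim-KO and 7689.7 and 7993 TPM in WT libraries (log2 fold change -0.20, adjusted p = 0.0284). How reads shared by such paralogs were divided is not given in the sources used here. S100a8, a subunit of the calcium-binding protein calprotectin, had 13.1 and 12.9 TPM in Vim-KO and 908 and 892 TPM in WT libraries (log2 fold change -6.01 ± 0.21, adjusted p = 8.92e-07).

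The 15 lowest genes further held Cxcl16, the membrane-bound ligand of CXCR6 (log2 fold change -6.17), the chemokines Ccl7 (-6.10) and Cxcl3 (-6.07), Basp1 (-6.03), Mcemp1 (-5.18), and Clec4n, which encodes the fungal receptor dectin-2 (-5.10). Flot2, the membrane scaffold protein flotillin-2, was at 0.036 and 0 TPM in Vim-KO and 29.3 and 29.6 TPM in WT libraries. Il33, an alarmin of the interleukin-1 family, had 3.76 and 3.69 TPM in Vim-KO and 119 and 143 TPM in WT libraries. The anti-inflammatory cytokine Il10 was listed at 0 in both Vim-KO libraries, against 24.8 and 27.5 TPM in WT libraries.

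Among the 15 highest genes were 2 enzymes that hydroxylate collagen, a laminin receptor and a cathepsin. Plod2, a lysyl hydroxylase of collagen, had 128 and 125 TPM in Vim-KO and 3.61 and 3.51 TPM in WT libraries (log2 fold change 4.80 ± 0.09, adjusted p = 2.95e-08). Itga3, the integrin alpha-3 chain that binds laminin, had 31.9 and 30.1 TPM in Vim-KO and 0.598 and 0.5396 TPM in WT libraries (log2 fold change 4.35 ± 0.13, adjusted p = 3.86e-07). Batf, a transcription factor of the AP-1 family, had 143 and 152 TPM in Vim-KO and 6.91 and 7.29 TPM in WT libraries (log2 fold change 4.20 ± 0.10, adjusted p = 1.73e-07). In all 3 genes both Vim-KO libraries lay above both WT libraries, which the rule for naming them required. Ctsh, a lysosomal aminopeptidase, had 254 and 246 TPM in Vim-KO and 12.00 and 16.4 TPM in WT libraries (log2 fold change 4.06 ± 0.13, adjusted p = 4.83e-07). Pdcd1, which encodes the inhibitory receptor PD-1, had 131 and 118 TPM in Vim-KO and 14.8 and 16.1 TPM in WT libraries (log2 fold change 2.93 ± 0.08, adjusted p = 3.32e-07). The collagen prolyl hydroxylase P3h2 (3.06), the secreted glycoprotein Stc2 (3.02), the vasodilator peptide Adm (3.002), the small heat shock protein Hspb8 (2.87), the formin Fmnl2 (2.84), the sodium channel Scn11a (3.03), Guca2a (3.81), Hsh2d (3.51), Nxf7 (3.46) and Fam213a (2.83) completed the 15.

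**Figure D1:**
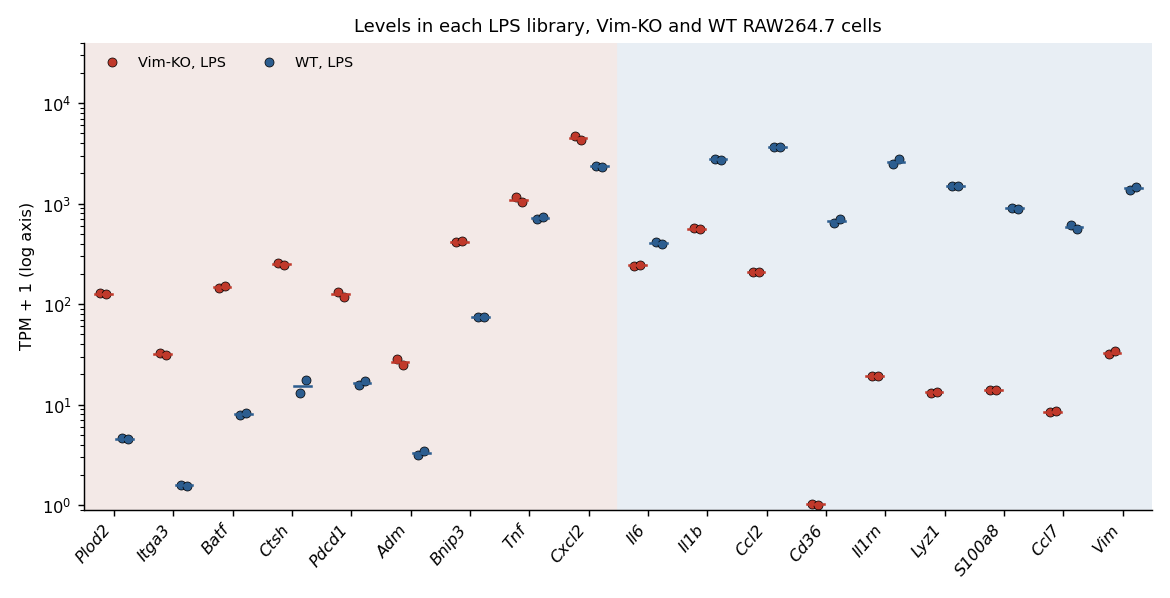
TPM + 1 on a log axis for 18 genes in the 2 Vim-KO and the 2 WT libraries under LPS; points are single libraries and short lines are means. Genes on the left are higher in Vim-KO cells, from Plod2 at 128 and 125 TPM in Vim-KO to Cxcl2. Those on the right are lower, from Il6 to Vim. Most of the 18 were named by a rule that asked for no overlap between the genotypes, so their separation reflects the choice.

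Some transcripts were at 0 in both libraries of one genotype under LPS. At 0 in both Vim-KO libraries and at 10 TPM or more in both WT libraries under LPS were 10 genes. Beside Il10 they are Tfec, a transcription factor of the MiT family (19.3 and 18.4 TPM in the WT libraries), Dapk1, a death-associated kinase (12.7 and 13.3 TPM), Adcy2, an adenylate cyclase (12.1 and 13.7 TPM), Car4, a membrane-bound carbonic anhydrase (14.6 and 16.6 TPM), Arrdc4, an arrestin-domain protein (15.1 and 15.9 TPM), Psma8, the testis-type proteasome subunit (15.6 and 14.05 TPM), and the predicted genes Gm48981, Gm10222 and Gm7367. Of the 6 named genes other than Il10, Tfec, Car4, Arrdc4 and Psma8 were at 0 in both Vim-KO libraries with PBS too, and Dapk1 and Adcy2 were at no more than 0.018 and 0.022 TPM there. In the WT libraries with PBS Car4 was near 0 as well, at 0.374 and 0 TPM. The others of these 6 were at 2.59 TPM or more in both WT libraries with PBS. Gm10222 had 23.4 and 44.02 TPM and Gm7367 12.2 and 22.3 TPM in the Vim-KO libraries with PBS. The other direction held 1 gene, the predicted Gm7329, at 39.7 and 40.9 TPM in Vim-KO and 0 in both WT libraries under LPS, and at 0 and 16.6 TPM in Vim-KO and 7.84 and 0 TPM in WT libraries with PBS. Gm48981, Gm10222, Gm7367 and Gm7329 are annotated as pseudogenes, and the calls of Gm10222 and Gm7329 under LPS were lost without the filter. Genes at 0 beyond the 6 highest were named after their values were seen, because they are few.

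Cytokine genes were mostly lower, and the early LPS cytokine Tnf and a few chemokines were higher. Of 32 cytokine and chemokine genes tested, 4 were higher and 21 lower in Vim-KO cells, with a list median of -0.83, and 7 were not called. Ccl2, the chemokine that draws monocytes, had 209 and 209 TPM in Vim-KO and 3631 and 3689.99 TPM in WT libraries (log2 fold change -4.12 ± 0.11, adjusted p = 2.78e-07). Il1b had 567 and 552 TPM in Vim-KO and 2774 and 2725 TPM in WT libraries (log2 fold change -2.29 ± 0.07, adjusted p = 4.15e-07). Il1a, the other interleukin-1 agonist, had 286 and 238 TPM in Vim-KO and 1832 and 1883 TPM in WT libraries (log2 fold change -2.83). Il6 differed less, with 240.1 and 244 TPM in Vim-KO and 419 and 394 TPM in WT libraries (log2 fold change -0.75 ± 0.08, adjusted p = 2.04e-04). Agonists and antagonist of the interleukin-1 receptor were thus all lower in the Vim-KO libraries.

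The 4 higher members were Tnf, Cxcl2, Ccl3 (0.58) and Tnfsf9, the ligand of the costimulatory receptor 4-1BB (1.31). Tnf was at 1152 and 1036 TPM in Vim-KO and 695 and 738 TPM in WT libraries (log2 fold change 0.61 ± 0.09, adjusted p = 8.95e-04). The neutrophil chemokine Cxcl2 was at 4724 and 4305 TPM in Vim-KO and 2382 and 2330.3 TPM in WT libraries (log2 fold change 0.94 ± 0.16, adjusted p = 0.00197). Cxcl2 and Cxcl3, which are neighbours in the CXC chemokine cluster, differed in opposite directions: Cxcl3 had 0.512 and 0.643 TPM in Vim-KO and 101.2 and 109 TPM in WT libraries. Csf3 (1381 and 1134 TPM in Vim-KO and 1400.04 and 1528 TPM in WT libraries), Ccl4 (3377 and 3122 TPM in Vim-KO and 2875 and 3294 TPM in WT libraries) and Il27 (62.7 and 56.1 TPM in Vim-KO and 57.2 and 62.6 TPM in WT libraries) were not called. Among 18 further macrophage activation genes tested, 2 were higher and 13 lower (median -1.14), and the formyl peptide receptor Fpr1 (-3.25), the arginine-synthesizing enzyme Ass1 (-3.14), the arginine transporter Slc7a2 (-2.63) and the costimulator Cd86 (-2.54) were the largest. Nos2, the inducible nitric oxide synthase that uses arginine, was higher, with 283 and 221 TPM in Vim-KO and 153 and 178 TPM in WT libraries (log2 fold change 0.59, adjusted p = 0.00691). Ptgs2, the inducible prostaglandin synthase, was at 2435 and 2040.3 TPM in Vim-KO and 2015 and 2184 TPM in WT libraries and was not called (adjusted p = 0.463).

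Tlr4 and its partners were lower in Vim-KO cells, and the other genes of LPS sensing and signalling were mixed. Of 26 genes of Toll-like receptors and their signalling tested, 6 were higher and 8 lower. Tlr4 had 5.92 and 4.898 TPM in Vim-KO and 16.4 and 15.5 TPM in WT libraries (log2 fold change -1.41 ± 0.11, adjusted p = 3.69e-05). Ly96, which encodes MD-2 (log2 fold change -0.72, adjusted p = 8.35e-04), and Cd14 (-0.54, adjusted p = 0.00145) were lower as well. Tlr9, the sensor of CpG DNA, was higher, at 11.9 and 9.85 TPM in Vim-KO and 4.401 and 4.98 TPM in WT libraries (log2 fold change 1.06). With PBS it was lower, at 4.997 and 4.62 TPM in Vim-KO and 14.5 and 13.6 TPM in WT libraries (-1.37, interaction 2.43). Of the 26 genes limma called none higher and 17 lower with PBS, against 17.7% and 25.4% of all genes tested. It called 15 interactions higher and none lower (2 at an unadjusted p under 0.05), against 13.7% and 6.96%. Under LPS Cd180 (0.95) and its partner Ly86 (1.01), which restrain LPS signalling in dendritic cells and macrophages of mice, were higher too. Of 27 NF-kB feedback and target genes, 6 were higher (3 after median-of-ratios scaling between libraries) and 8 lower. Bcl3, a nuclear IkB protein, had 10.6 and 12.1 TPM in Vim-KO and 60.1 and 80.01 TPM in WT libraries (log2 fold change -2.52). Ier3 had 1499 and 1183 TPM in Vim-KO and 466 and 537 TPM in WT libraries (1.41). Nfkbia, the IkB gene that NF-kB itself induces, was at 632 and 653 TPM in Vim-KO and 644 and 651 TPM in WT libraries and was not called. Of 26 immediate early genes 5 were higher and 13 lower, among them Dusp1, a phosphatase of MAP kinases (-2.76), and Fos (-1.81).

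**Figure D2:**
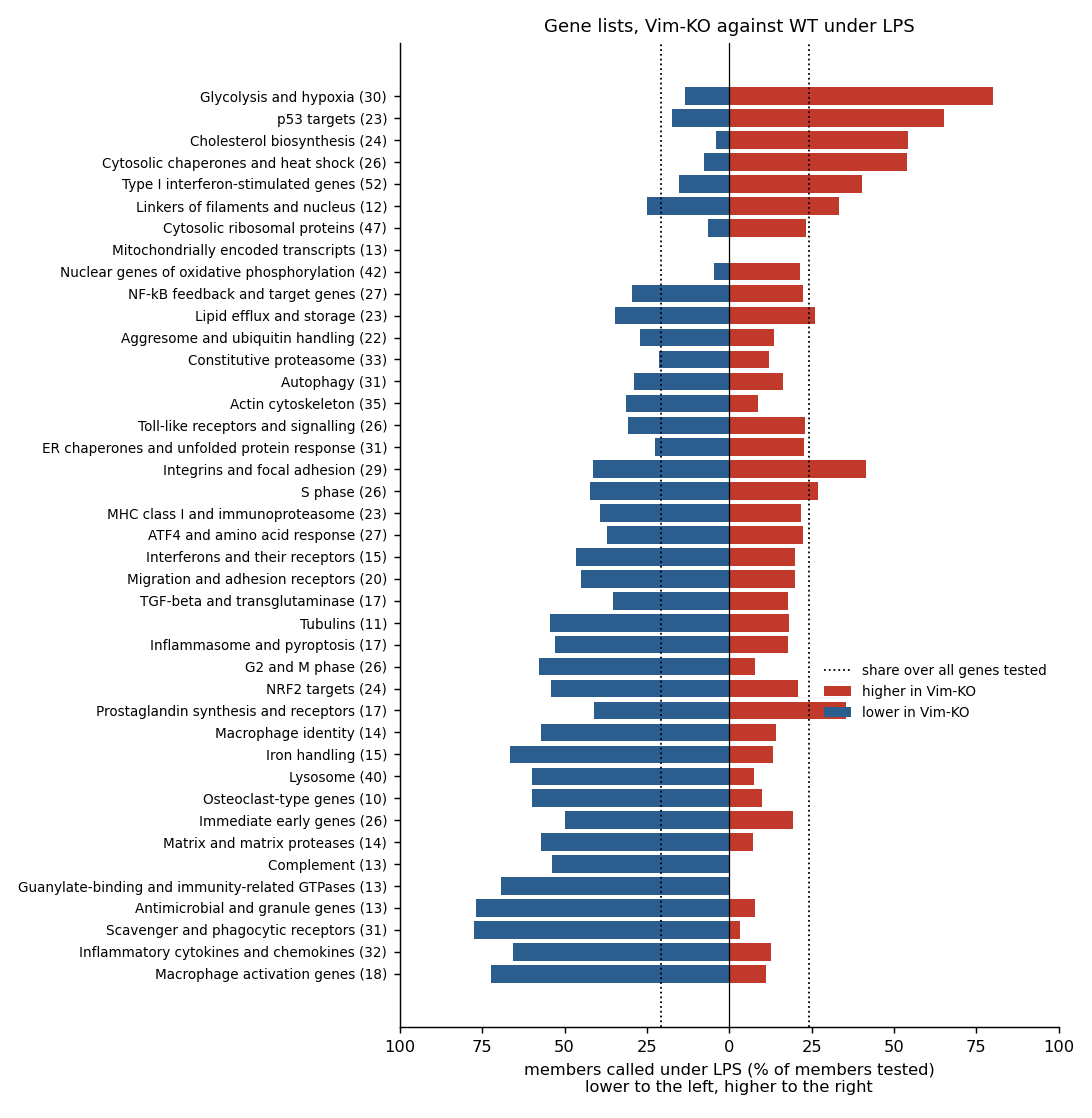
Share of the tested members of each gene list called higher (right) or lower (left) in Vim-KO cells against WT cells under LPS, for lists with at least 10 members tested (number in brackets), ordered by the list median. Dotted lines give the shares over all genes tested, 24.1% higher and 20.6% lower; 24 of 30 glycolysis and hypoxia genes were higher, and 24 of 31 scavenger and phagocytic receptor genes lower.

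Type I interferon-stimulated genes were on balance a little higher under LPS in Vim-KO cells, although they were lower with PBS. Of 52 tested, 21 were higher and 8 lower under LPS (19 and 9 after scaling), with a list median of 0.20. With PBS limma called none higher (1 at an unadjusted p under 0.05) and 50 lower, with a median of -1.79, where over all genes 4782 were called (43.0%), 1962 higher (17.7%) and 2820 lower (25.4%). The difference between the 2 contrasts, which share no library, was tested as an interaction of genotype and LPS: over all genes 2292 were called (20.6%), 1518 higher (13.7%) and 774 lower (6.96%), and of the 52 genes 50 were higher and 1 lower. After median-of-ratios scaling the share of interactions called higher fell to 46.2%, against 66.2% without it, and the median interaction of all genes moved by -0.12. Mx2, of the dynamin-like antiviral GTPases, is annotated as a polymorphic pseudogene. It had 54.9 and 54.8 TPM in Vim-KO and 23.8 and 20.8 TPM in WT libraries under LPS (log2 fold change 1.26 ± 0.11, adjusted p = 5.81e-05), and 0.826 and 0.659 TPM in Vim-KO and 7.88 and 7.399 TPM in WT libraries with PBS (-2.31). Rsad2, which encodes viperin, had 109 and 103 TPM in Vim-KO and 46.9 and 53.2 TPM in WT libraries under LPS (1.07), and 0.674 and 0.677 TPM in Vim-KO and 2.87 and 2.62 TPM in WT libraries with PBS (-1.16). Both genes were thus higher in Vim-KO cells under LPS and lower with PBS.

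Oas3, a synthetase of the signal molecule that activates RNase L, had 220.3 and 187 TPM in Vim-KO and 121 and 136 TPM in WT libraries under LPS (log2 fold change 0.66, interaction 2.75 ± 0.13). Isg15, a ubiquitin-like protein, reached 302 and 304 TPM in Vim-KO and 304 and 297 TPM in WT libraries (0.01) and was not called under LPS, whereas with PBS it was at 3.65 and 4.39 TPM in Vim-KO and 24.03 and 22.1 TPM in WT libraries. Members of the list were not alike: Slfn1 (0.863 and 0.447 TPM in Vim-KO and 11.9 and 13.4 TPM in WT libraries, log2 fold change -3.05) and Ifi27l2a (27.8 and 25.8 TPM in Vim-KO and 214 and 199.5 TPM in WT libraries, -2.90) were strongly lower. Among the 8 largest positive interactions of genes called under LPS were Hpgd, Mx1, Mx2, Oas2, Ifi202b, H2-T24 and Dhx58, between 2.99 and 4.17, of which Mx1, Mx2, Oas2 and Dhx58 belong to the interferon list. The LPS call that put Oas2 in this set was lost after median-of-ratios scaling, and that of Hpgd in the LPS libraries alone. Hpgd was at no more than 0.479 TPM in the LPS libraries of both genotypes. Mx1 and Mx2 are close paralogs, and members of the Oas and Slfn families also resemble each other.

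Promoters are shown for 4 of these genes, because the element that interferon-activated transcription factors bind, spelled here as GAAANNGAA on either strand, can be read in them. It was found in 21 of the 39 list members with a promoter in the RefSeq table (53.8%), against 7.38% of the 8415 genes tested with a promoter and 8.58% of all 27025 promoters, each read from 250 bases before to 50 after the start. Over all genes called under LPS the share was 7.28% of those higher and 8.52% of those lower. The 4 were chosen after their values were seen. The stretch from 150 bases before the start up to it is given 5′ to 3′ in the direction of the gene, in lower case, with the match in capitals (in its reverse complement where it lies on the opposite strand). The table is of GRCm38.p6; Ifi44l is at chr3:151762892-151763041, minus strand, Oas3 at chr5:120777660-120777809, minus strand, Rsad2 at chr12:26456453-26456602, minus strand, and Slfn8 at chr11:83020811-83020960, minus strand.
Ifi44l: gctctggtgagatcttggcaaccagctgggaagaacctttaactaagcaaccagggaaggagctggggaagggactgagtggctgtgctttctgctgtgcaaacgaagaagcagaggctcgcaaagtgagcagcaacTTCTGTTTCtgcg
Oas3: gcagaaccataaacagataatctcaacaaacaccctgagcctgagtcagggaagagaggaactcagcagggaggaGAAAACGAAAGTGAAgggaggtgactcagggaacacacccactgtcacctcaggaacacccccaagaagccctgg
Rsad2: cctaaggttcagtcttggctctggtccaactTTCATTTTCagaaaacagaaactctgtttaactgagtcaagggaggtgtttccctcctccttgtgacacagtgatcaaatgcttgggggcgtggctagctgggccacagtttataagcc
Slfn8: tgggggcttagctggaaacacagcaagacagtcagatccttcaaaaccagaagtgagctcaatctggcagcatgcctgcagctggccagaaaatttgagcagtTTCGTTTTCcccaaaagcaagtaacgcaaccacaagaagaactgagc
Their log2 fold changes under LPS were 0.72 (Ifi44l), 0.66 (Oas3), 1.07 (Rsad2) and 1.04 (Slfn8), and with PBS -2.06, -2.09, -1.16 and -0.54 in that order, which reflects the choice and shows nothing of the list. In Oas3 2 matches overlap. A match is a run of letters and not a measured binding site.

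**Figure D3:**
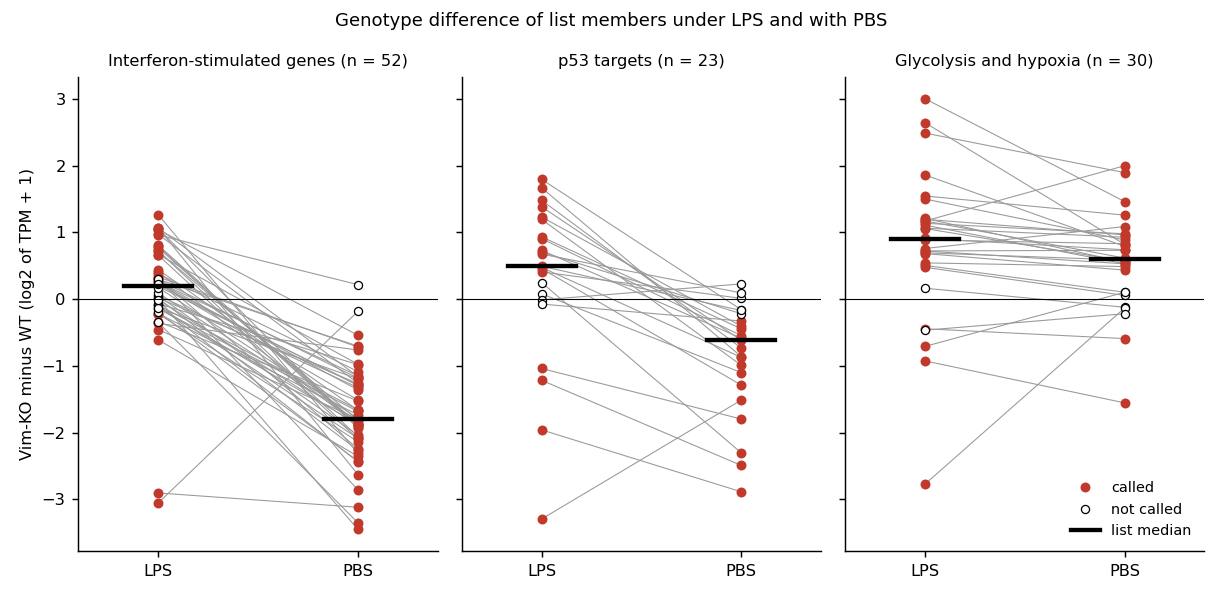
Log2 fold change of Vim-KO against WT cells under LPS (left in each panel) and with PBS (right) for the tested members of 3 lists; lines join the values of a gene, red points were called, open points were not, and black bars are list medians. Medians of the interferon-stimulated genes were 0.20 under LPS and -1.79 with PBS, those of the p53 targets 0.49 and -0.62, and those of glycolysis and hypoxia 0.90 and 0.60.

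Guanylate-binding protein genes, which many cells switch on with interferon gamma, were lower, and antigen presentation genes were mixed. By limma none of 13 guanylate-binding proteins, immunity-related GTPases and their regulators was higher (1 at an unadjusted p under 0.05) and 9 were lower (median -0.66); Gbp5 (-1.30), Gbp9 (-1.25), Gbp2 (-1.08) and Gbp2b (-1.004) changed most, and the 9 include the transcription factor Irf1 and the signalling inhibitor Socs1. Of 23 genes of MHC class I and the immunoproteasome 5 were higher and 9 lower (3 and 12 after scaling). H2-D1 had 400.03 and 377 TPM in Vim-KO and 717 and 775 TPM in WT libraries (log2 fold change -0.94), and H2-K1 306 and 270.4 TPM in Vim-KO and 416 and 465 TPM in WT libraries (-0.61), while H2-M3 was higher (1.10). With PBS 1 of the 23 genes was higher and 18 were lower, and 17 interactions were higher and 1 lower. Sequences of the H2 genes are close, so their single values are uncertain.

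Surface receptors by which macrophages bind particles were lower almost throughout. Of 31 scavenger and phagocytic receptor genes tested, 1 was higher and 24 were lower, with a list median of -0.83; the only higher one was Scarb1, a receptor for high-density lipoprotein (0.53). Clec7a, the beta-glucan receptor dectin-1, had 0.082 and 0.103 TPM in Vim-KO and 14.3 and 12.8 TPM in WT libraries (log2 fold change -3.73 ± 0.14, adjusted p = 1.12e-06). Clec4a2 had 0.116 and 0 TPM in Vim-KO and 23.5 and 18.99 TPM in WT libraries (-4.39). The Fc receptor Fcgr3 had 3.33 and 2.68 TPM in Vim-KO and 32.3 and 33.7 TPM in WT libraries (-3.09). With PBS 2 of the 31 were higher and 26 lower (median -0.85), so the receptors were low in Vim-KO cells in both treatments.

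Complement and antimicrobial genes were also more often lower than higher, and migration and adhesion receptors were called in both directions. Of 13 complement genes limma called 7 lower and none higher, also with no unadjusted p under 0.05 on that side. The protease gene Cfb was at 1.804 and 1.39 TPM in Vim-KO and 33.00 and 37.2 TPM in WT libraries (-3.80), and C2 at 1.21 and 2.12 TPM in Vim-KO and 19.00 and 15.3 TPM in WT libraries (-2.78). Of 13 antimicrobial and granule genes 10 were lower and 1, the oxidase subunit Ncf1, was higher (0.41); Slpi, a protease inhibitor, had 139.7 and 152 TPM in Vim-KO and 1179 and 1241 TPM in WT libraries (-3.04). Of 20 migration and adhesion receptors 4 were higher and 9 lower. The chemokine receptors Ccr1 (1.19 and 1.09 TPM in Vim-KO and 22.7 and 24.2 TPM in WT libraries, -3.51) and Ccr2 (-2.60) were low. The urokinase gene Plau was high (97.2 and 103 TPM in Vim-KO and 29.4 and 31.9 TPM in WT libraries, 1.68). Of 14 macrophage identity genes 2 were higher and 8 lower. Aif1, the actin-bundling protein IBA1, had 2.56 and 1.92 TPM in Vim-KO and 14.1 and 13.6 TPM in WT libraries (-2.20), while Csf1r, the receptor of macrophage colony-stimulating factor, was higher (716 and 605 TPM in Vim-KO and 315 and 340.4 TPM in WT libraries, 1.01).

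Proteostasis is named in the aim of the study, and its branches did not move together. Lysosomal genes were lower: of 40 tested, 3 were higher and 24 lower (median -0.37), with 2 higher and 29 lower with PBS. Ctsc, which activates granule proteases, had 165 and 133 TPM in Vim-KO and 1203 and 1319.7 TPM in WT libraries (log2 fold change -3.08 ± 0.12, adjusted p = 1.15e-06). Cd63, a membrane protein of late endosomes, had 73.9 and 83.5 TPM in Vim-KO and 360.3 and 398 TPM in WT libraries (-2.25), and the acid lipase Lipa had 170.4 and 159 TPM in Vim-KO and 413 and 449 TPM in WT libraries (-1.38). Tfeb, a transcription factor that drives lysosomal genes, was lower too (-1.33, adjusted p = 8.38e-05). The exceptions were Ctsh, described above, Laptm5 (0.66) and Gusb (0.22).

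Cytosolic chaperone genes were more often higher than lower. Of 26 tested, 14 were higher and 2 lower (median 0.32), with 15 higher and 1 lower with PBS. Hspb8, which works with BAG3 in delivering misfolded proteins to autophagy, had 8.15 and 7.03 TPM in Vim-KO and 0.176 and 0.172 TPM in WT libraries (log2 fold change 2.87 ± 0.18, adjusted p = 1.48e-05). Hspa4l, a nucleotide exchange factor of Hsp70, had 89.99 and 81.1 TPM in Vim-KO and 30.2 and 31.00 TPM in WT libraries (1.45). Hsp90aa1, the inducible Hsp90, had 2416 and 2635 TPM in Vim-KO and 1147 and 1115 TPM in WT libraries (1.16). Its cochaperone Ahsa1 had 337 and 348 TPM in Vim-KO and 198 and 184 TPM in WT libraries (0.84). Both lie on chromosome 12, whose genes were raised as a whole, as described below. The inducible Hsp70 gene Hspa1b was at 2.48 and 3.03 TPM in Vim-KO and 2.06 and 2.43 TPM in WT libraries and was not called, and reads of its near-identical copy may be split with it.

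Proteasome, autophagy and endoplasmic reticulum genes were called in both directions. Of 33 constitutive proteasome genes, 4 were higher and 7 lower under LPS (median -0.03), whereas 17 were higher and 1 lower with PBS, and 8 interactions were lower and 1 higher. Psma3 (0.56) and Psmc1 (0.52), the 2 highest, lie on chromosome 12. Of 31 autophagy genes 5 were higher and 9 lower. Atg7, the activating enzyme of ATG8 conjugation, had 22.9 and 21.7 TPM in Vim-KO and 46.7 and 42.9 TPM in WT libraries (-0.97). The autophagy receptor Sqstm1 had 771 and 756 TPM in Vim-KO and 1207 and 1301 TPM in WT libraries (-0.71). The mitophagy receptors Bnip3 and Bnip3l (1.28) were higher. Of 22 genes of aggresomes and ubiquitin handling 3 were higher and 6 lower, with the deubiquitinase Uchl1 at 0.214 and 0 TPM in Vim-KO and 9.24 and 8.79 TPM in WT libraries (-3.18). Of 31 genes of chaperones in the endoplasmic reticulum and the unfolded protein response 7 were higher and 7 lower (6 and 12 after scaling), with the oxidase Ero1l highest (416 and 395 TPM in Vim-KO and 169 and 151 TPM in WT libraries, 1.34). Of 27 ATF4 and amino acid response genes 6 were higher and 10 lower. The stress transcription factor Ddit3, known as CHOP, had 28.2 and 28.9 TPM in Vim-KO and 122 and 119 TPM in WT libraries (-2.04), and Nupr1 60.6 and 65.7 TPM in Vim-KO and 238 and 233 TPM in WT libraries (-1.88). Of 24 NRF2 targets 5 were higher and 13 lower (3 and 15 after scaling), led by the biliverdin reductase Blvrb (-1.10).

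Glycolysis and hypoxia genes were the list with the most members higher in Vim-KO cells. Of 30 tested, 24 were higher and 4 lower, with a list median of 0.90; with PBS 22 were higher and 2 lower (median 0.60). Bnip3 had 410.1 and 426 TPM in Vim-KO and 74.05 and 73.4 TPM in WT libraries (log2 fold change 2.49 ± 0.08, adjusted p = 7.20e-07). Adm had 27.3 and 23.6 TPM in Vim-KO and 2.14 and 2.44 TPM in WT libraries (3.002 ± 0.21, adjusted p = 2.43e-05), and Eno2, the neuronal type enolase, 28.1 and 36.4 TPM in Vim-KO and 3.73 and 4.898 TPM in WT libraries (2.64). Pdk1, which keeps pyruvate from the mitochondria, had 68.5 and 60.2 TPM in Vim-KO and 15.8 and 18.2 TPM in WT libraries (1.86). The glucose transporter Slc2a1 (1.06), lactate dehydrogenase Ldha (1.20) and the lactate exporter Slc16a3 (1.55) were all higher. Hif1a, the oxygen-regulated transcription factor of this programme, had 126 and 118 TPM in Vim-KO and 70.7 and 73.1 TPM in WT libraries (0.76) and lies on chromosome 12. The exception was Pfkfb3, the kinase that makes the activator of phosphofructokinase, at 10.5 and 8.42 TPM in Vim-KO and 65.8 and 74.5 TPM in WT libraries (-2.77 ± 0.12, adjusted p = 1.72e-06), with Hk3, Aldoc and Pfkfb4 also lower and Car9 and Pkm not called.

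The core of the hypoxia response element, ACGTG on either strand, was found in 16 of the 29 list members with a promoter (55.2%), against 26.8% of the genes tested, 29.5% of those higher and 24.8% of those lower under LPS. Promoters of 3 members are shown for it, each from 150 bases before the start up to it, 5′ to 3′, with matches in capitals: Bnip3 at chr7:138909507-138909656, minus strand, Slc16a3 at chr11:120948917-120949066, plus strand, and Slc2a1 at chr4:119108595-119108744, plus strand (GRCm38.p6, RefSeq).
Bnip3: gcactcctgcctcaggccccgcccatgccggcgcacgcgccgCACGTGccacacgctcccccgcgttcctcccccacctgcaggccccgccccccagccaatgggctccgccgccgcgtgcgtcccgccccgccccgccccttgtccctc
Slc16a3: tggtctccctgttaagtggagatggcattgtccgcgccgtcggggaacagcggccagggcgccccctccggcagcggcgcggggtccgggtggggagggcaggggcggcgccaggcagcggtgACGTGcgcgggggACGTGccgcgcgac
Slc2a1: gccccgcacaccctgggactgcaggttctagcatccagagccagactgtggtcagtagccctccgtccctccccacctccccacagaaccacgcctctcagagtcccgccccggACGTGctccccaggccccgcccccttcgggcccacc
In Bnip3 the matches on the opposite strands overlap and spell CACGTG, which is also the E-box. The motif was added, and the 3 promoters chosen, after the values had been seen. The heat shock element pair GAANNTTC stood in 9 of 21 chaperone promoters (42.9%), against 5.61% of the genes tested.

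Targets of p53 were higher under LPS and lower with PBS in Vim-KO cells. Of 23 tested, 15 were higher and 4 lower under LPS (median 0.49), 17 were lower with PBS and limma called none higher, also with no unadjusted p under 0.05 on that side (median -0.62), and 19 interactions were higher and 1 lower. Cdkn1a, the inhibitor of cyclin-dependent kinases known as p21, had 1550.1 and 1421 TPM in Vim-KO and 498 and 566 TPM in WT libraries under LPS (log2 fold change 1.48 ± 0.07, adjusted p = 4.47e-06), and 229 and 229 TPM in Vim-KO and 382 and 378 TPM in WT libraries with PBS (-0.73). Mdm2, the ligase that degrades p53, had 304 and 289.6 TPM in Vim-KO and 219.5 and 212 TPM in WT libraries under LPS (0.46). Eda2r (1.67) and Ddit4, an inhibitor of mTORC1 (1.79), were higher. Against these, Gadd45a had 9.42 and 9.16 TPM in Vim-KO and 106 and 93.9 TPM in WT libraries (-3.29), and the death receptor Fas 13.8 and 13.7 TPM in Vim-KO and 58.1 and 54.4 TPM in WT libraries (-1.96). Among 26 G2 and M phase genes 2 were higher and 15 lower under LPS (1 and 16 after scaling, median -0.28), with Mki67, the proliferation marker Ki-67, at 15.5 and 12.7 TPM in Vim-KO and 22.5 and 24.4 TPM in WT libraries (-0.70); with PBS 4 were higher and 4 lower.

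Cholesterol synthesis genes were more often higher than lower in Vim-KO cells. Of 24 cholesterol synthesis genes 13 were higher and 1 lower (median 0.37), led by squalene epoxidase Sqle (60.8 and 58.2 TPM in Vim-KO and 28.96 and 33.5 TPM in WT libraries, 0.91) and the synthase Hmgcs1 (0.75). The cholesterol exporter Abca1 was low, at 0.695 and 0.523 TPM in Vim-KO and 9.81 and 13.03 TPM in WT libraries (log2 fold change -2.94, adjusted p = 1.89e-05), and so was the lipid droplet protein Plin2 (-1.36). None of the 13 mitochondrially encoded transcripts was called by limma or had an unadjusted p under 0.05. Their summed level was 25226 and 45793 TPM in Vim-KO and 48006 and 24359 TPM in WT libraries, a spread within each genotype that leaves a difference between them not detectable. Of 42 nuclear genes of oxidative phosphorylation 9 were higher and 2 lower, or 4 and 3 after scaling. Of 15 iron genes 2 were higher and 10 lower: the exporter Slc40a1 was higher (12.9 and 12.7 TPM in Vim-KO and 4.24 and 3.53 TPM in WT libraries, 1.51), and the phagosomal metal transporter Slc11a1 lower (-1.18). Among 17 prostaglandin and leukotriene genes, Ptgs1, the constitutive prostaglandin synthase, was higher (12.5 and 10.1 TPM in Vim-KO and 1.59 and 1.698 TPM in WT libraries, 2.21), and the prostaglandin E2 receptors Ptger4 (-1.73) and Ptger2 (-1.63) were lower.

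Actin, tubulin and matrix genes were more often lower than higher in Vim-KO cells, while linker and adhesion genes were called in both directions. Of 6 intermediate filament and lamin genes tested limma called 3 lower and none higher, also with no unadjusted p under 0.05 on that side. Beside Vim, the gene removed by design, these were Lmna and Ina. Lmna, which encodes lamins A and C, had 222 and 211 TPM in Vim-KO and 463 and 498 TPM in WT libraries (log2 fold change -1.15 ± 0.06, adjusted p = 4.95e-06). Ina, a neuronal filament, had 0.056 and 0.035 TPM in Vim-KO and 3.76 and 3.81 TPM in WT libraries. Of 12 linkers of filaments and nucleus 4 were higher and 3 lower. Plec, the plectin that links vimentin to actin and the nucleus, had 46.7 and 42.5 TPM in Vim-KO and 72.7 and 77.8 TPM in WT libraries (-0.74). Of 35 actin cytoskeleton genes 3 were higher and 11 lower (1 and 14 after scaling), with Marcks, which ties actin to the membrane, at 0.928 and 0.695 TPM in Vim-KO and 14.4 and 16.9 TPM in WT libraries (-3.20). Of 11 tubulins 2 were higher and 6 lower (1 and 7 after scaling), led by Tubb2a (23.2 and 19.7 TPM in Vim-KO and 74.5 and 79.6 TPM in WT libraries, -1.80), which has a close paralog in Tubb2b. Integrin and focal adhesion genes were called often and evenly, 12 higher and 12 lower of 29: against Itga3 stood the kinase Src (0.1003 and 0.126 TPM in Vim-KO and 12.9 and 13.98 TPM in WT libraries, -3.70). Of 14 matrix and matrix protease genes 1 was higher, the sheddase Adam17 (0.96), and 8 were lower. Tenascin C, from Tnc, was at 2.51 and 1.93 TPM in Vim-KO and 71.6 and 89.2 TPM in WT libraries (-4.66). Gelatinase Mmp9 was at 0.942 and 0.682 TPM in Vim-KO and 31.7 and 38.8 TPM in WT libraries (-4.32), and the inhibitor Timp1 at 7.76 and 4.802 TPM in Vim-KO and 75.8 and 88.1 TPM in WT libraries (-3.54).

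Genes on chromosome 12 were higher in Vim-KO cells as a group. Of 402 tested genes there, 270 were higher and 22 lower under LPS, with a median log2 fold change of 0.55, a ratio of 1.46, and 85.8% of them above 0. With PBS the median was 0.48. Cut into 8 runs of about 50 neighbouring genes, the chromosome had medians between 0.40 and 0.63 in every run under LPS and between 0.39 and 0.64 with PBS. The median over chromosome 12 lay between 0.52 and 0.59 for each pairing of a Vim-KO with a WT library under LPS, so it did not rest on 1 library. Chromosome 12 holds 3.62% of the genes tested, 10.1% of those called higher and 47 of the 346 that were higher by at least 1 on the log2 scale (13.6%). Batf, Rsad2, Hif1a, Hsp90aa1, Ahsa1, Psma3 and Psmc1 lie on it, and Fos, Ifi27l2a and 20 others were lower there. Without chromosome 12, 2411 genes were higher and 2263 lower.

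Chromosome 9 showed the opposite over part of its length. Of 603 tested genes 82 were higher and 197 lower under LPS, with a median of -0.12, against -0.24 with PBS. Runs 2 to 7 of 12, from S1pr2 to Ick, had medians between -0.32 and -0.16 under LPS and between -0.55 and -0.30 with PBS, while the last 5 runs lay between -0.01 and 0.15 under LPS. The 202 runs of chromosomes other than 9 and 12 lay between -0.23 and 0.24 under LPS and between -0.28 and 0.15 with PBS. Under LPS runs 2 (-0.22), 3 (-0.18) and 7 (-0.16) were thus within the range of other chromosomes. With PBS all of runs 2 to 7 were below it. The median of the whole chromosome under LPS was -0.07 without Vim-KO library 2 or without WT library 2. Plod2 and Ctsh, among the highest genes of the genome, lie on this chromosome but past Ick, outside runs 2 to 7, and so do Ccr1 and Ccr2. The other 17 autosomes and X had medians between -0.01 and 0.10 under LPS and between -0.11 and 0.00 with PBS. The 8 tested genes of Y had medians of 0.32 under LPS and 0.14 with PBS, and the 13 mitochondrial transcripts 0.06 and -0.28. The number of DNA copies was not measured, and the part of chromosome copy number in these values was not tested.

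**Figure D4:**
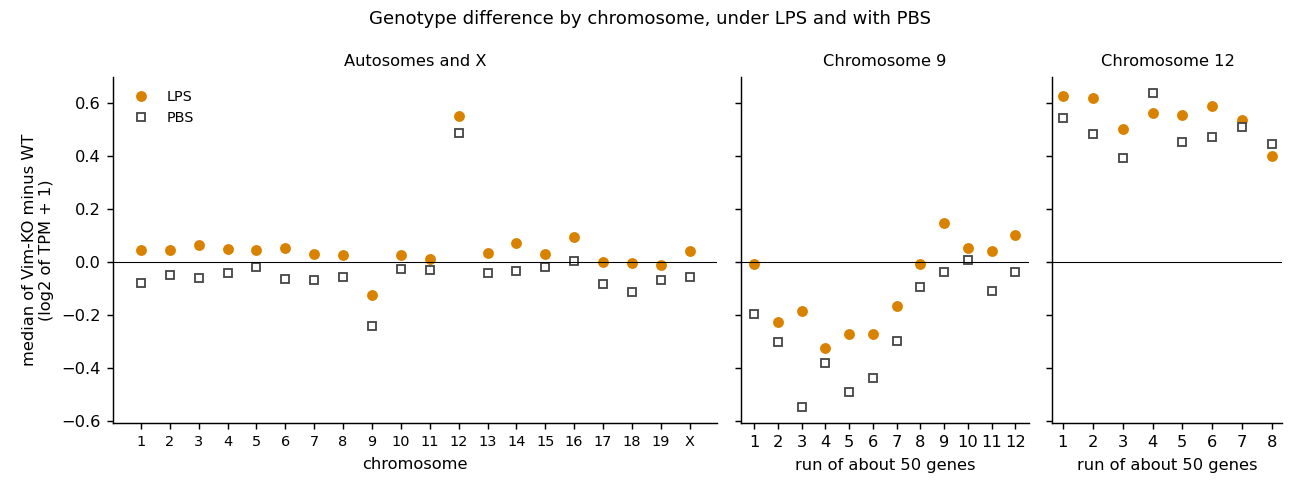
Median log2 fold change of Vim-KO against WT cells by chromosome (left, autosomes and X, without Y and the mitochondrial genome) and along chromosomes 9 and 12 in runs of about 50 tested genes in genomic order; filled circles are LPS and open squares PBS. Chromosome 12 stood at 0.55 under LPS and 0.48 with PBS, chromosome 9 at -0.12 and -0.24, and the others plotted between -0.11 and 0.10.

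Differences under LPS overlapped in part with those with PBS, where the libraries are other ones of the same 2 lines. Of the genes called under LPS, 2695 were called with PBS in the same direction, which is 54.3% of the LPS calls and 56.4% of the PBS calls, and 296 in the opposite direction. Across the genes tested the 2 fold changes correlated at 0.61, where genes are not independent replicates and both contrasts come from 1 experiment. Cd36 (log2 fold change -9.36 under LPS and -8.78 with PBS), Lyz1 (-6.83 and -7.46) and Cxcl16 (-6.17 and -7.27) were low in both. Some genes low in Vim-KO cells under LPS were near 0 in both genotypes with PBS: Serpinb2, Cxcl3, Il33, Il10, U90926 and Stfa3 were at no more than 0.104 TPM in all 4 PBS libraries, and their interactions lay between -7.54 and -4.41. S100a8 was at 0.8502 and 0.275 TPM in Vim-KO and 0.761 and 1.62 TPM in WT libraries with PBS. Hpgd, which degrades prostaglandins, was low in Vim-KO cells with PBS: it was at 0.405 and 0.174 TPM in Vim-KO and 32.5 and 30.7 TPM in WT libraries with PBS, and at 0.057 and 0 TPM in Vim-KO and 0.479 and 0.421 TPM in WT libraries under LPS.

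**Figure D5:**
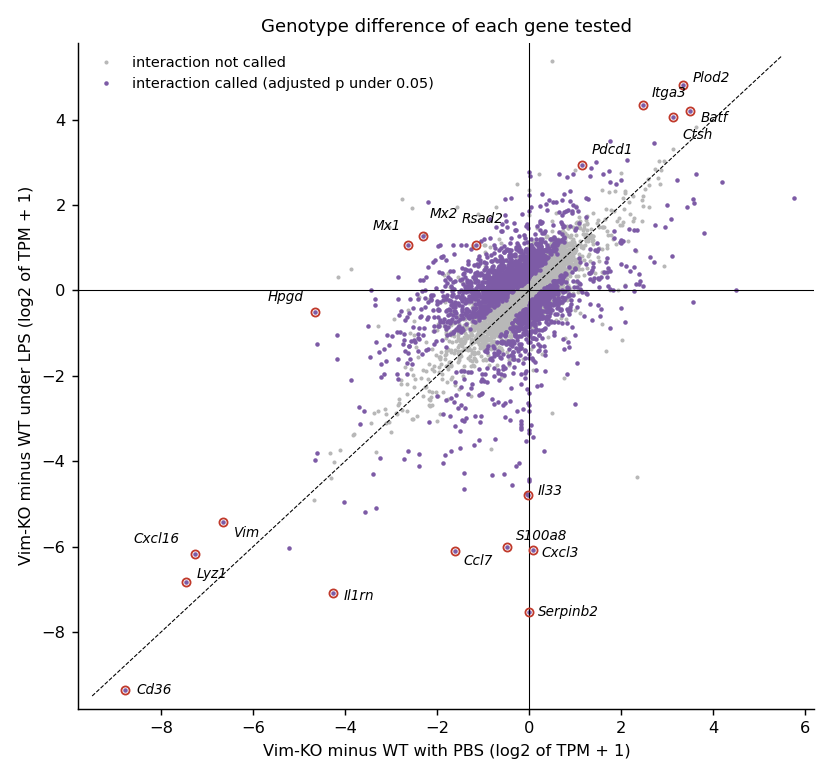
Log2 fold change of Vim-KO against WT cells under LPS (vertical) and with PBS (horizontal) for the 11115 genes tested; purple points had a called interaction, and the dashed line marks equal values. Cd36, Lyz1 and Vim lie at the lower left, Serpinb2 and Cxcl3 at -7.54 and -6.07 under LPS near 0 with PBS, and Mx1 and Mx2 above 0 under LPS and below 0 with PBS.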

How the data were processed

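Poly(A) RNA of RAW264.7 cells was sequenced from stranded libraries, per the labels' protocols. The authors deposited a gene table in TPM; Salmon and the builds mm10 and GRCm38 are named in the submitters' processing notes, without versions. TPM keep no counts, so count models were not used and depth is unknown.

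The 8 libraries of the 12 h experiment were grouped by genotype and treatment from the labels. Genes averaging 1 TPM or more over them were fitted by limma 3.58.1 (R 4.3.3) on log2(TPM + 1), with a mean-variance trend, 4 group means and the 3 contrasts of Vim-KO against WT under LPS, with PBS, and their difference; p-values were adjusted over all 11115 genes by Benjamini-Hochberg, and the procedure was tested on simulated data. Tables and figures were made with Python 3.11.15, numpy 2.4.6, pandas 2.3.3 and matplotlib 3.10.9. Gene lists and comparisons were chosen with earlier results of these data known. Named genes are Vim and Tgm2; the 15 highest and 15 lowest called genes under LPS without overlap, with at least 5 TPM in the higher group and not predicted; up to 6 each way at 0 in both libraries of a genotype and at 10 TPM or more in the other; up to 4 called members with the largest change per list; and the 8 largest interactions each way. Other members named were chosen after their values were seen, and results for a few genes are not reported here. Positions are from GENCODE vM21 (GRCm38), with 1 position for 11064 of the genes tested, and promoters from RefSeq (GRCm38.p6).

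Alternatives were another pseudocount (0.1 TPM), no filter or one at 5 TPM, median-of-ratios scaling, no trend, a minimum log2 fold change of 1, the LPS or PBS libraries alone, a replicate block, and leaving out each library.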

Additional observations from a re-analysis of the deposited data

Results flagged for a closer look

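The genotype difference under LPS was tested against the genotype difference with PBS, and 2292 genes differed (limma interaction, adjusted p under 0.05). Values below are interactions on the log2 scale, LPS minus PBS, for the genes named in the report.

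Among the genes highest in Vim-KO cells the difference was larger under LPS for Itga3 (1.88), Pdcd1 (1.78), Hsh2d (1.74), Adm (1.54), Hspb8 (1.52), Plod2 (1.45), Ctsh (0.94), P3h2 (0.94), Nxf7 (0.75) and Batf (0.71).

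Among the lowest genes it was larger under LPS for Serpinb2 (-7.54), Cxcl3 (-6.14), S100a8 (-5.52), Il33 (-4.77), Il10 (-4.71), Ccl7 (-4.48), Stfa3 (-4.47), U90926 (-4.41), Il1rn (-2.83), Clec4n (-1.78), Mcemp1 (-1.61), Basp1 (-0.81) and Cd36 (-0.58), and smaller for Vim (1.23), Cxcl16 (1.10) and Lyz1 (0.63). Of the genes listed at 0 in both Vim-KO libraries under LPS, Car4 (-3.82), Gm7367 (-3.74), Gm48981 (-0.93) and Tfec (-0.91) had a called interaction; these fitted values depend on the pseudocount.

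Among the 8 highest interactions were those of Hpgd (4.17), Mx1 (3.69), Mx2 (3.58), Oas2 (3.17), Ifi202b (3.14), H2-T24 (3.02) and Dhx58 (2.99). Ifi202b had 95.1 and 103 TPM in Vim-KO and 209 and 199 TPM in WT libraries under LPS, and 0.974 and 1.38 TPM in Vim-KO and 39.4 and 37.2 TPM in WT libraries with PBS.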

How the results depend on the processing

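Of 195 named genes with a fit, none reversed under any alternative run and 18 lost their call under at least 1, 13 of them on leaving out a library. The 195 are the genes named by rule, picked largely for a call and a large change, so reversals were unlikely from the start. Genes named after their values were seen were not among them. A minimum log2 fold change of 1 left 916 genes under LPS, 969 with PBS and 710 interactions. Leaving out 1 library gave 3716 to 4652 calls under LPS, 3226 to 5323 with PBS and 1219 to 2649 interactions; the interaction count moved most without WT PBS 1 (1219), Vim-KO PBS 2 (1234), WT PBS 2 (1249), Vim-KO PBS 1 (1448) or WT LPS 1 (1458). A lone library is then assumed to vary like the other groups. Scaling left 7 called oxidative phosphorylation genes, against 11. Without chromosome 12, and without 9 and 12, 4674 and 4395 genes were called under LPS, settings added after seeing the data.

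Same-numbered libraries did not deviate together (r = -0.22 for the LPS groups and -0.14 to 0.10 for the other pairs of groups), so the numbers were not taken as pairs. With the replicate block 4603 genes were called under LPS in the fit of all 8 libraries, against 4966 without it. In the 4 LPS libraries alone 3606 genes were called without a block and 3097 with it. With crossed numbers in these 4 libraries, chosen after seeing the data, 5012 genes were called. Depth is unknown, with 2 libraries per group, so small differences may have been missed.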

Other observations

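Further lists under LPS showed mostly lower calls in Vim-KO cells. Of 6 alternative activation genes tested 5 were lower, among them the interleukin-4 receptor chain Il4ra (14.96 and 9.85 TPM in Vim-KO and 41.3 and 49.8 TPM in WT libraries, log2 fold change -1.82) and the transcription factor Klf4 (-1.31). Of 17 inflammasome and pyroptosis genes 3 were higher and 9 lower, with Casp1, the protease that matures interleukin-1 beta, at 70.7 and 76.8 TPM in Vim-KO and 139 and 134 TPM in WT libraries (-0.88) and the sensor adaptor Nlrc4 at -1.20. Of 15 genes of interferons and their receptors 3 were higher and 7 lower, with the transcription factor Irf8 (-0.76) and the receptor chain Ifnar2 (-0.71) lower. The 5 genes tested of the MHC class II list held no chain of the class II molecules that present peptides. Of the 5, 1 was higher, the invariant chain Cd74 (0.45), and 4 were lower, H2-DMb1, H2-DMb2, H2-DMa and the protease gene Ctss (-0.63). Of these 4, H2-DMb1 and H2-DMb2 lost their call without WT LPS library 1 or Vim-KO LPS library 1, H2-DMb2 and H2-DMa without WT LPS library 2 and H2-DMa without Vim-KO LPS library 2. Of 17 TGF-beta and transglutaminase genes 3 were higher and 6 lower.

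Genes linked to osteoclasts, which RAW264.7 cells can form, were more often lower too: of 10 tested 1 was higher and 6 lower under LPS (median -0.40). With PBS 2 were higher and 7 lower. Car2, the cytosolic carbonic anhydrase of osteoclasts, had 642 and 606 TPM in Vim-KO and 119.5 and 127 TPM in WT libraries (2.33), and Acp5, the tartrate-resistant acid phosphatase, 0.366 and 0.276 TPM in Vim-KO and 6.87 and 6.92 TPM in WT libraries (-2.58). S phase genes were called on both sides, 7 higher and 11 lower of 26 under LPS, with 8 higher and 1 lower with PBS. Of 47 cytosolic ribosomal protein genes 11 were higher and 3 lower (7 and 4 after scaling), with a median of 0.08.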
